A study of Rattus norvegicus with 26 samples.

Results

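The hedgehog ligands and pathway genes measured here are 10 rat genes, *Ihh*, *Shh*, *Dhh*, *Ptch1*, *Smo*, *Gli1*, *Gli2*, *Gli3*, *Hhip* and *Sufu*, followed in 2 lines of progenitor cells over 6 days of differentiation towards smooth muscle and in primary smooth muscle RNA. They were selected on the gene name that the array annotation gives their probes, with earlier results of these arrays known, and the probes of a gene were ordered by their mean level over the 26 arrays. All 10 genes had a probe, and together they had 19 of the 41012 gene probes on the array. *Gli3* was not well above background on any of the 26 arrays and was left out. *Shh*, just inside that limit, was well above background on 2 of 26. A gene entered the tests where a probe was detected (well above background) throughout 1 group or more, on each array of it, which held for 7 of the 10 genes (14 probes), and for 24442 probes in all. *Shh*, *Gli3* and *Hhip* did not pass. Since a probe that was detected in 1 group only had to differ from the others, the count of genes that passed is no result.

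rMAPCs are rat multipotent adult progenitor cells that express *Oct4*. Line Cl19 was derived from the bone marrow of a 3 week old female Fischer rat, and line 3c3 from bone marrow of the same strain and sex at embryonic stage E18, and each is 1 clone. Undifferentiated cells were harvested on d0, and cells treated with TGF-β and PDGF-BB in serum-free basal medium on d2, d4 and d6, with 3 arrays per line and day. The primary smooth muscle (SMC) group had 2 arrays of commercial aortic RNA per the labels. The study's array methods name primary smooth muscle cell RNA of another supplier, and a figure caption of the study names cultured aortic cells. No culture without the growth factors was analysed here, so time in culture and treatment cannot be told apart.

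Hedgehog proteins are secreted signals. Where none is bound, the receptor Ptch1 holds the membrane protein Smo inactive, and once a ligand binds Ptch1, Smo is released and acts in the primary cilium on the Gli transcription factors, which Sufu otherwise restrains. *Gli1*, *Ptch1* and *Hhip* are transcribed in response to the signal in many tissues, so their RNA is often read as its output. In the early embryo *Ihh* is made by visceral endoderm, later by cartilage and gut epithelium, and in the vessel wall hedgehog signals act on mural cells.

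Levels are log2 intensities after quantile normalization, so that a level of 1 unit more is a doubling of signal, and levels of different probes cannot be set against each other. A probe was called well above background by the scanner software, on 43.2% to 61.4% of features per array, and no feature was saturated. The 3c3 replicate 3 arrays had the highest background (negative controls at 9.13 to 20.9 intensity units, against 0.143 to 5.0 units on the other arrays). The array labelled Cl19 d2 replicate 1 stood apart: it differed by 0.312 log2 units (root mean square over tested probes) from the mean of 3c3 d2 and by 0.849 from the other 2 arrays of its own group, and tests that use Cl19 d2 are given with and without it. The labels were otherwise borne out by *Tagln*, an SMC cytoskeleton gene, which in Cl19 stood at 9.31 on d0 and 15.85 on d6, in 3c3 at 8.83 and 14.78 and in primary SMC at 16.27. Each line was scanned on its own day, as was primary SMC, so that line, or cell source, and scan day cannot be told apart. The study's supporting methods call the 3 arrays of a line and day biological replicates. The labels do not say whether they came from separate cultures, and p-values then measure the spread between these samples.

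*Ihh* RNA was detected in undifferentiated rMAPCs of both lines, and it fell over 6 days, 112-fold in Cl19 and 9.08-fold in 3c3 by its brightest probe. The other 3 probes gave 75.5-fold to 99.1-fold in Cl19, and with normexp background correction the log2 change by the brightest was -5.47 in place of -6.80, a smaller fall that also passed. The brightest probe was detected on all 24 rMAPC arrays. That probe lies at chr9:74287130-74287189 on the minus strand of rn4, the build of the array annotation, which does not place probes in exons or introns.

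In Cl19 *Ihh* stood at 12.62, 12.71 and 12.60 in the 3 replicates on d0, at 11.95, 11.12 and 11.23 on d2, at 10.91, 8.46 and 8.90 on d4, and at 5.90, 5.89 and 5.72 on d6. No replicate of a day overlapped with those of another day, and the d4 arrays were the most spread, with replicate 1 the highest of them. The mean went from 12.64 ± 0.06 (SD, n = 3) on d0 to 5.84 ± 0.10 on d6. In 3c3 the levels were 11.44, 11.39 and 11.49 on d0, 12.18, 11.90 and 11.85 on d2, 10.00, 9.30 and 9.32 on d4, and 8.42, 7.91 and 8.44 on d6. All 3 arrays of d2 were above all 3 of d0, and those of d4 and d6 were below. On the primary SMC arrays the probe read 3.43 and 2.84, not well above background on either.

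**Figure D1:**
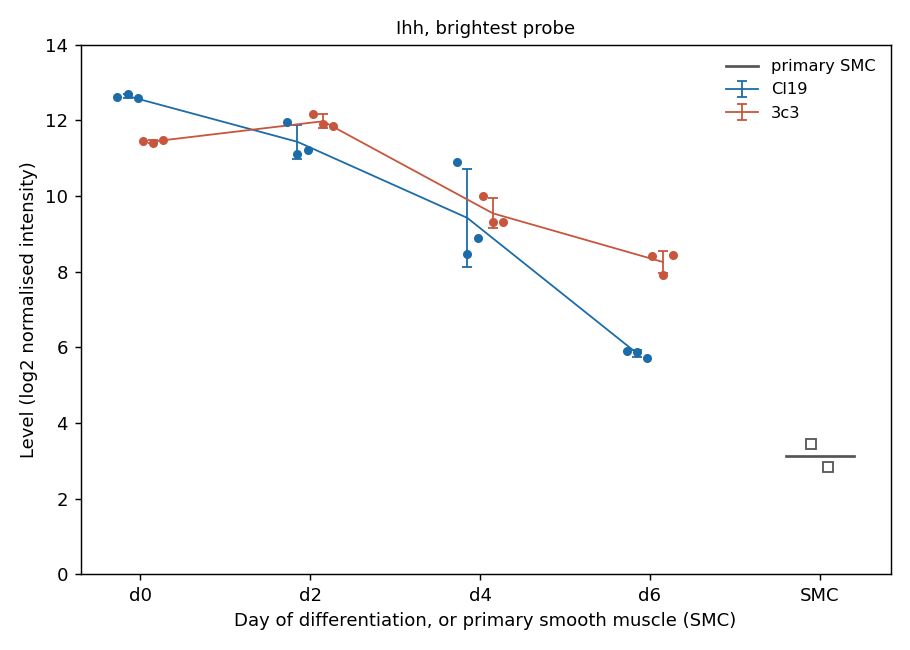
Level of *Ihh* (log2 normalised intensity, brightest probe, vertical axis) by day in Cl19 (blue) and 3c3 (red) and in primary SMC (grey squares). Points are arrays, open where not well above background, and lines join group means with the SD of 3 arrays. The lines part between d4 and d6, where Cl19 reached 5.84 and 3c3 8.26, and both SMC points are open.

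The d0 to d6 change was -6.80 (SE 0.41, limma adjusted p = 1.3e-10) in Cl19 and -3.18 (SE 0.41, limma adjusted p = 3.2e-06) in 3c3. Ordered from the most negative change, it was number 38 of 24442 tested probes in Cl19 and number 210 in 3c3. Within slides, each of which held the 4 days of 1 replicate, the d6 minus d0 difference was -6.72, -6.82 and -6.88 in Cl19 and -3.02, -3.47 and -3.05 in 3c3, so that the smallest fall in Cl19 was larger than the largest in 3c3. The difference between the lines in this change was -3.62 (SE 0.57, limma adjusted p = 0.00016), in a comparison where 17.4% of all tested probes passed.

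The steps between days are given as a description. Between the daily means, *Ihh* in Cl19 moved by -1.21 from d0 to d2, by -2.01 from d2 to d4 and by -3.58 from d4 to d6. The last step of the means was the largest, but the d4 mean held the high replicate 1, and on the slide of replicate 2 the change from d0 was -1.59, -4.25 and -6.82 by d2, d4 and d6, so that there the middle step was slightly larger than the last. In 3c3 the steps were 0.53, -2.43 and -1.28, with the largest in the middle. The Cl19 fall by d2 passed the test (limma adjusted p = 0.037; 22.6% of probes passed), as it did without Cl19 d2 replicate 1 (-1.47, limma adjusted p = 0.021), but not without replicate 2 (-1.05, limma adjusted p = 0.14) or replicate 3 of d2, without any one of the 3 d0 arrays (limma adjusted p = 0.081 to 0.094), or by the other 3 probes (limma adjusted p = 0.12 to 0.30). The 3c3 value on d2 did not pass (limma adjusted p = 0.43; 19.1% of probes passed). The difference between the lines on d2, a comparison added after the values were seen, was -1.75 (SE 0.57, limma adjusted p = 0.31) and did not pass, while 0.323% of all probes did. Without Cl19 d2 replicate 1 it was -2.0 (limma adjusted p = 0.077), and without Cl19 d4 replicate 1, which enters the estimate of spread, it passed (limma adjusted p = 0.023). By d4 *Ihh* had changed by -3.22 in Cl19 (limma adjusted p = 2.5e-06; 47.3% of probes passed) and by -1.90 in 3c3 (limma adjusted p = 0.0012; 37% passed). On d4 the difference between the lines (-1.32, SE 0.57, limma adjusted p = 0.15; 14.4% passed) did not pass. This rested on Cl19 d4 replicate 1, without which the Cl19 change was -3.96 and the difference between the lines -2.07 (limma adjusted p = 0.00042), while without Cl19 d4 replicate 2 the difference was -0.84 (limma adjusted p = 0.36).

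The other 3 *Ihh* probes gave the same course. They lie between chr9:74287332 and chr9:74292799, and their levels correlated with those of the brightest probe over the 26 arrays at r = 0.982 to 0.996, across arrays that share their groups. Their d6 changes were -6.29, -6.63 and -6.24 in Cl19 and -2.89, -3.09 and -3.31 in 3c3. Each of the 4 probes passed the test between the lines, with limma adjusted p-values from 0.00016 to 0.010. On d2 in 3c3 all 4 rose in their means, by 0.53 to 0.81, and none passed.

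**Figure D2:**
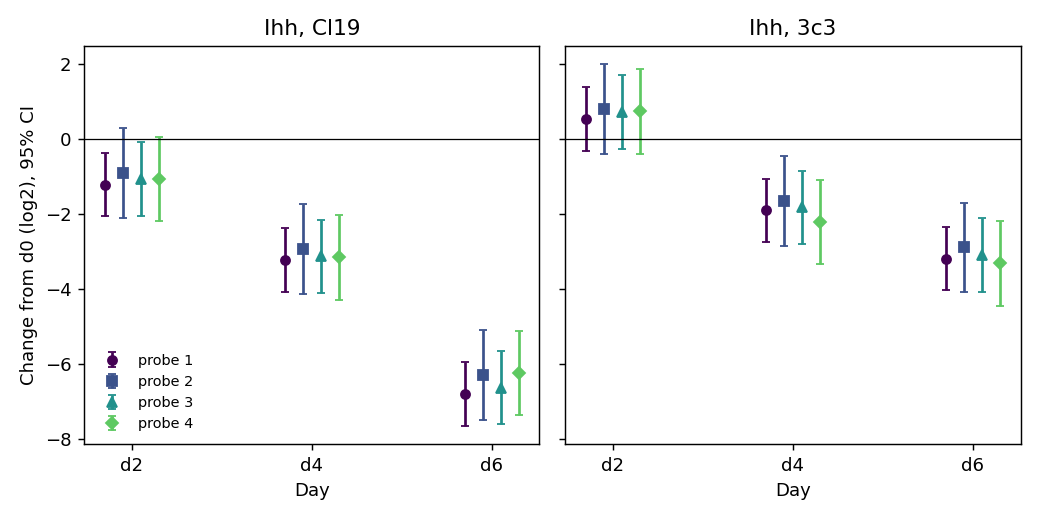
Change of *Ihh* from d0 (log2, vertical axis) on d2, d4 and d6 by each of its 4 probes, in Cl19 (left) and 3c3 (right), with 95% confidence intervals from the fit. The 4 probes overlap on every day, and by d6 they span -6.80 to -6.24 in Cl19 and -3.31 to -2.89 in 3c3.

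Ordered by level, the groups ran from Cl19 d0 (12.64) through 3c3 d2 (11.97), 3c3 d0 (11.44), Cl19 d2 (11.43), 3c3 d4 (9.54), Cl19 d4 (9.42), 3c3 d6 (8.26) and Cl19 d6 (5.84) to primary SMC (3.13). Neighbours overlapped between 3c3 d0 and Cl19 d2 and between 3c3 d4 and Cl19 d4. Without replicate 1 the mean of Cl19 d2 was 11.17 and that of Cl19 d4 was 8.68, each below every array of the neighbouring 3c3 group. On d0 Cl19 was above 3c3 by 1.20 (SE 0.41), which did not pass (limma adjusted p = 0.16; 3.07% of probes passed). Primary SMC was lower than Cl19 d6 by at least 4.18-fold (limma adjusted p = 2.6e-05) and lower than 3c3 d6 by at least 22.4-fold (limma adjusted p = 4.7e-09), both bounds, as the probe was not well above background on the 2 SMC arrays. The first of these calls was lost with normexp background correction (-0.73, limma adjusted p = 0.10). The second *Ihh* probe was well above background on SMC replicate 1 (4.35). Its bounds were 2.40-fold against Cl19 d6 and 10.9-fold against 3c3 d6. The other 2 probes gave no fold bound against Cl19 d6, and at least 1.89-fold and 1.65-fold against 3c3 d6.

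*Shh*, the best-studied hedgehog ligand, was measured by 1 probe, which was well above background on 1 array of Cl19 d4 (2.14) and 1 of Cl19 d6 (2.03), both of replicate 3. The highest of the other 24 values was 1.82. It lies at chr4:2201100-2206014 on rn4, a span wider than its 60 bases, so it crosses an intron. One *Ihh* probe is built the same way, at chr9:74290343-74292799, over the corresponding stretch of the other ligand. Both are shown since they read related coding sequence of sister genes in the same RNA. Capitals mark the bases that are identical when the probes are aligned without gaps.
*Ihh*: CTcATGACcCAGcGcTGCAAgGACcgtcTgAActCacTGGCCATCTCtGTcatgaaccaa
*Shh*: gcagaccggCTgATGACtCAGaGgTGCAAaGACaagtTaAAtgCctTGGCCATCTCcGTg
Over the 51 aligned bases 35 were identical (68.6%) and 16 differed. On Cl19 d0 the *Ihh* one of the pair read 8.94, 8.79 and 8.86, well above background on all 3 arrays. The *Shh* one read 0.35, 1.10 and 0.99, not well above background on any of the 3 arrays. As these are different probes, the relative amounts of the RNAs cannot be read from these levels.

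*Dhh*, the ligand known from Schwann cells and testis, was dim, and its 2 probes went different ways in primary SMC. The brighter probe, at chr7:137672005-137672064, read 2.27 to 4.27 over the rMAPC arrays, and its d6 changes of 0.51 in Cl19 (limma adjusted p = 0.40, 95% CI -0.50 to 1.52) and 0.50 in 3c3 (limma adjusted p = 0.43, 95% CI -0.52 to 1.51) did not pass. In primary SMC it read 5.53 and 4.70, above every rMAPC array, and at least 3.15-fold above Cl19 d6 (limma adjusted p = 0.010), a call that was lost without SMC replicate 1 (limma adjusted p = 0.12). The second probe read 0.82 and 0.58 in primary SMC, not well above background, against 3.16, 3.77 and 2.80 on Cl19 d6 (limma adjusted p = 0.0025, lower in SMC). It passed the filter through Cl19 d6 only, so this call was favoured in advance, and no fold bound can be given. Against 3c3 d6 the brighter probe was 1.69 higher in SMC (limma adjusted p = 0.0089) and the second was lower (limma adjusted p = 0.013). No direction can be given for the gene from these probes. On d0 the brighter probe was well above background on 1 of 3 arrays in each line, and the second on 2 of 3 in Cl19.

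The 3 genes that respond to the signal in many tissues, *Ptch1*, *Gli1* and *Hhip*, were all dim. The brightest probes of *Ptch1* and *Gli1* fell from d0 to d6 in Cl19. *Ptch1*, the receptor, read 5.18, 4.82 and 5.35 on d0 and 4.31, 3.63 and 4.50 on d6 in Cl19, with no overlap. The change was -0.97 (SE 0.27, limma adjusted p = 0.0050). In 3c3 it read 5.35, 4.80 and 5.30 on d0 and 4.48, 4.31 and 4.69 on d6, again with no overlap, and the change of -0.66 (SE 0.27) was at the threshold (limma adjusted p = 0.0503). With the slide as a block it passed (limma adjusted p = 0.0019), and all 3 slides of each line had a lower level on d6 than on d0, with differences of -0.49 to -1.19 over the 6 slides. *Ptch1* was already lower on d2, by -0.65 in Cl19 (limma adjusted p = 0.091) and -0.72 in 3c3 (limma adjusted p = 0.072), values that passed with the slide as a block (limma adjusted p = 0.0046 and 0.0029). Without Cl19 d2 replicate 1 the Cl19 value was -0.73 (limma adjusted p = 0.093), or -0.66 (limma adjusted p = 0.014) with the block. The d4 changes of -0.68 (limma adjusted p = 0.043) and -0.87 (limma adjusted p = 0.015) passed without it. The d4 calls were lost without Cl19 d0 replicate 1 or 3 or d4 replicate 2 (limma adjusted p = 0.10, 0.15 and 0.20), and without 3c3 d0 replicate 1 or 3 or d4 replicate 3 (limma adjusted p = 0.064, 0.056 and 0.081). The second *Ptch1* probe, across an intron at chr17:7120748-7121410, was well above background on 8 of 26 arrays. It passed the filter through Cl19 d0 only, so falls from that group were favoured in advance and their calls are no support. In Cl19 it was at least 1.99-fold lower on d2 than on d0 (limma adjusted p = 0.015, or 0.016 without d2 replicate 1) and at least 2.17-fold lower on d4 (limma adjusted p = 0.0048), but its d6 change of -0.94 did not pass (limma adjusted p = 0.13). The d2 call was lost without Cl19 d0 replicate 2 or d2 replicate 3 (limma adjusted p = 0.060 and 0.084). In 3c3 its d6 change was -1.46 (limma adjusted p = 0.022), with 2 of 3 arrays well above background on d0 and 1 of 3 on d6, a call lost without d6 replicate 3 (-0.91, limma adjusted p = 0.16) or d0 replicate 1 (limma adjusted p = 0.078). The lines did not differ detectably in the *Ptch1* d6 change (-0.31, 95% CI -1.11 to 0.49, limma adjusted p = 0.70).

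*Gli1*, the Gli factor that is itself a target of the pathway, had 3 probes between chr7:67288442 and chr7:67292141 that were well above background on 12 to 14 of 26 arrays. By the brightest it read 3.42, 2.96 and 4.02 on d0 in Cl19, 2.88, 2.28 and 3.32 on d2, 1.52, 1.84 and 2.33 on d4 and 1.12, 1.01 and 2.50 on d6. The d6 level, well above background on 1 of 3 arrays, was at least 2.44-fold below d0 (limma adjusted p = 0.014), but the call was lost without Cl19 d0 replicate 3, d6 replicate 1 or d6 replicate 2 (limma adjusted p = 0.062, 0.053 and 0.062). A second tested probe, at chr7:67288442-67288501, read 3.87, 3.43 and 4.09 on d0 and 0.39, 1.37 and 0.82 on d6, at least 3.64-fold lower (limma adjusted p = 6.1e-05), and passed without any one array (limma adjusted p at most 0.00062). In 3c3 the brightest probe read 2.83, 2.97 and 3.13 on d0 and 1.93, 2.86 and 2.77 on d6, with no change that passed (-0.46, limma adjusted p = 0.58, 95% CI -1.76 to 0.85). The second went from 3.60, 3.33 and 3.33 to 3.14, 3.00 and 0.26, with 2 of 3 arrays well above background on d6 (limma adjusted p = 0.041). Without replicate 3 of d6 the change was -0.35 (limma adjusted p = 0.39), and the call was also lost without any one d0 array (limma adjusted p = 0.070 to 0.10). The lines' d6 changes did not differ beyond their error by either probe (limma adjusted p = 0.32 and 0.13). The brightest *Gli1* probe passed the filter through Cl19 d0 and d2 only, and the second tested probe through these and 3c3 d0. Falls from d0 were therefore favoured in advance, and their calls are no support. The third *Gli1* probe passed the filter in no group.

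*Hhip*, a membrane protein that binds and holds hedgehog ligands, was well above background on 9 of 26 arrays by its brighter probe and on none by the other, and it was not tested. The brighter probe read 2.20, 2.01 and 2.62 on d0 and 1.18, 0.67 and 1.28 on d6 in Cl19, with 1 and 0 arrays well above background. Its highest values were 4.98 on Cl19 d2 replicate 3 and 4.42 in primary SMC replicate 2.

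The promoter of *Ptch1* is shown because *Ptch1* and *Gli1* are the genes whose RNA is known to follow Gli activity, and because the window holds the 9-letter Gli motif GACCACCCA. The motif was searched on both strands in RefSeq windows of 300 bases (250 before to 50 after the start of a gene) on GRCr8, another rat assembly than that of the array. It was in 129 of 33469 windows (0.385%). Of the hedgehog genes, 7 had a window, those of *Dhh*, *Ptch1*, *Smo*, *Gli2*, *Gli3*, *Hhip* and *Sufu*, and 1, that of *Ptch1*, held it, on the minus strand. The 250 bases before the *Ptch1* start are at chr17:1555321-1555570 on the plus strand, and capitals mark the motif.
*Ptch1*: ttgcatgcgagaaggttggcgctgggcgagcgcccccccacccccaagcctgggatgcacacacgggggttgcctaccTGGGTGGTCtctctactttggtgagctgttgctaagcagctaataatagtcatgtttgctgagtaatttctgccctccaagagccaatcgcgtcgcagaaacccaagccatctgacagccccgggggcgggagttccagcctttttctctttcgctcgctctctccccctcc
A match of letters is no evidence that a Gli factor was bound there in these cells.

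*Smo*, the transducer, fell in 3c3 and did not pass the test in Cl19. In Cl19 it read 7.02, 6.84 and 7.24 on d0 and 6.93, 6.40 and 7.46 on d6, overlapping, with a change of -0.10 (limma adjusted p = 0.91, 95% CI -1.43 to 1.22). On d2 the array labelled Cl19 replicate 1 read 4.54 against 6.77 and 7.23 on the other 2, within the 4.25 to 4.73 of 3c3 d2. In 3c3 it read 6.32, 5.81 and 5.93 on d0 and 5.47, 2.90 and 3.41 on d6, with 2 of 3 arrays well above background. The groups did not overlap, and the change was -2.09 (SE 0.63, limma adjusted p = 0.010), or at least 3.55-fold. It did not pass without 3c3 d6 replicate 2 (-1.58, limma adjusted p = 0.067) or without the 3c3 replicate 3 slide (-1.88, limma adjusted p = 0.087). The difference between the lines (1.99, SE 0.89) did not pass (limma adjusted p = 0.15), and passed without 3c3 d6 replicate 1 (2.76, limma adjusted p = 0.021). Primary SMC, at 6.31 and 6.79, was above 3c3 d6 by at least 5.13-fold (limma adjusted p = 0.0027) and not detectably different from Cl19 d6 (-0.38, 95% CI -1.86 to 1.10).

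*Sufu*, the inhibitor that binds Gli proteins, was well above background on all 26 arrays and fell in both lines. It read 8.18, 8.09 and 8.21 on d0 and 7.44, 7.48 and 7.35 on d6 in Cl19 (-0.74, SE 0.18, limma adjusted p = 0.0016), and 8.62, 8.48 and 8.36 and then 7.73, 6.83 and 7.46 in 3c3 (-1.15, SE 0.18, limma adjusted p = 2.8e-05). No d6 array overlapped with d0 in either line. The difference between the lines did not pass (0.41, 95% CI -0.11 to 0.94, limma adjusted p = 0.32). Primary SMC had 9.75 and 9.78, above every rMAPC array, 2.34 above Cl19 d6 and 2.42 above 3c3 d6 (SE 0.20, limma adjusted p = 2.5e-09 and 1.4e-09). Its probe spans 8164 bases of the genome (chr1:251697537-251705700), so it crosses at least 1 intron.

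*Gli2*, the main activator among the Gli factors in mouse development, was the 1 hedgehog gene that rose, in Cl19 and by 1 of its 2 probes. By the brighter probe, at chr13:31551285-31551344, Cl19 read 0.79, 0.55 and 0.55 on d0 and 0.55, 1.48 and 0.51 on d2, not well above background on any of these arrays. On d4 it read 3.75, 5.08 and 5.0, and on d6 5.77, 6.49 and 5.87, well above background on all 6. These are at least 4.76-fold (limma adjusted p = 1.0e-05) and at least 12.8-fold (limma adjusted p = 1.6e-07) above d0. Within slides the d6 minus d0 difference was 4.98, 5.94 and 5.32. This probe passed the filter through Cl19 d4, Cl19 d6 and primary SMC only, so rises to these groups were favoured in advance. In 3c3 the probe read 1.98, 0.77 and 1.72 on d0 and 3.96, 0.54 and 2.25 on d6, where replicate 1 was well above background and the other 2 were not, and the change of 0.76 did not pass (limma adjusted p = 0.29, 95% CI -0.43 to 1.94). Without d6 replicate 2 it was 1.61 and passed (limma adjusted p = 0.010), and without d6 replicate 1 it was -0.10. The difference between the lines in the d6 change passed (4.66, SE 0.80, limma adjusted p = 0.00036), as did that in the d4 change (4.09, SE 0.80, limma adjusted p = 0.0016), the latter a comparison added after the values were seen. Their size is not fixed, as the probe was not detected on d0 in either line: the d6 difference was 2.94 with signals raised to the lowest detected level of each array (limma adjusted p = 0.0059) and 0.90 with normexp (limma adjusted p = 3.2e-05). Primary SMC read 7.90 and 7.87, above all rMAPC arrays, and 1.84 above Cl19 d6 (SE 0.63, limma adjusted p = 0.014), a call that was lost without either SMC array (limma adjusted p = 0.060 and 0.057).

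The second *Gli2* probe, at chr13:31553491-31553550 and so nearer the 5′ end of the gene, did not show the rise. It read 2.77, 2.72 and 2.72 on d0 and 2.65, 1.57 and 2.35 on d6 in Cl19 (-0.55, limma adjusted p = 0.32), and fell in 3c3 (-1.23, limma adjusted p = 0.028), where 1 of 3 arrays of d6 was well above background, a call lost without d6 replicate 2 or 3 (limma adjusted p = 0.051 and 0.21) or d0 replicate 1 or 3 (limma adjusted p = 0.074 and 0.075). The probe was detected on 13 of 26 arrays, and its primary SMC values of 3.59 and 3.62 were not. The *Gli2* rise in Cl19 is therefore that of 1 probe.

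**Figure D3:**
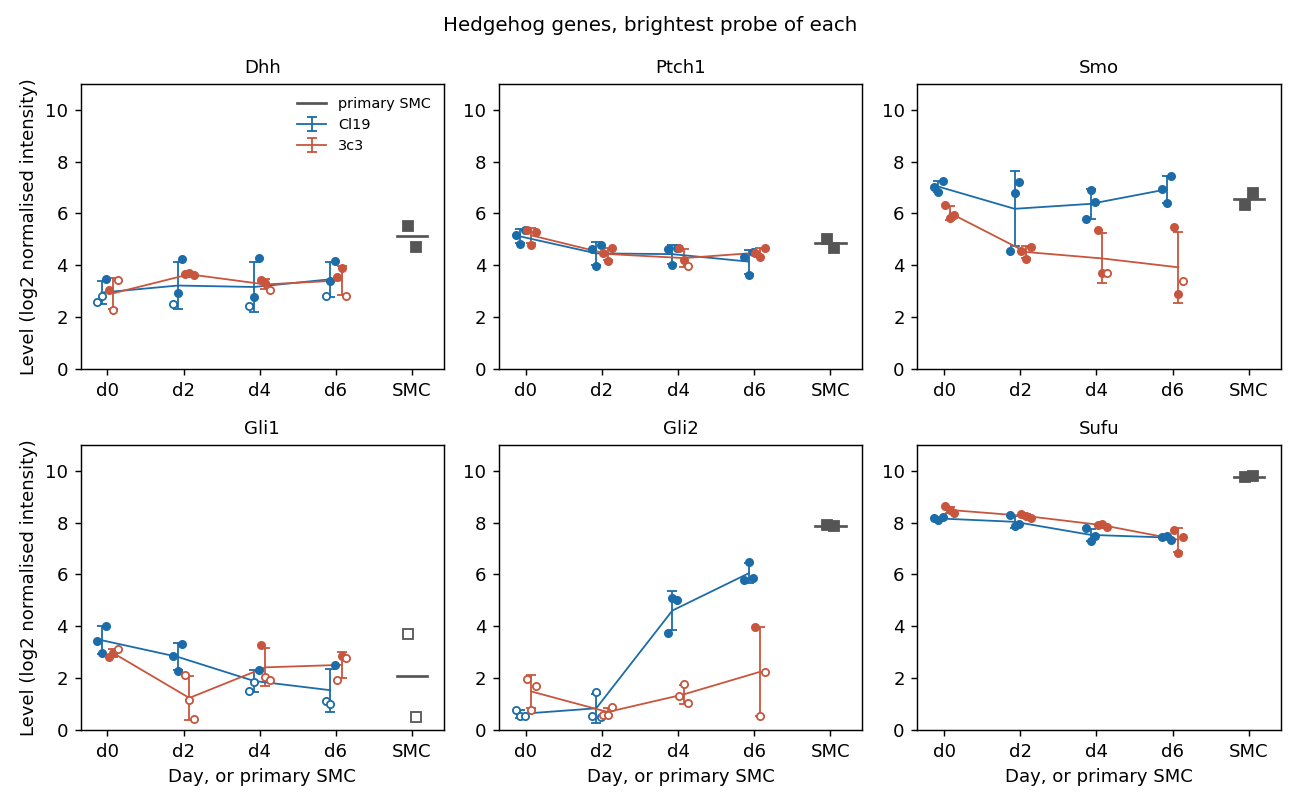
Levels (log2 normalised intensity, vertical axes) of *Dhh*, *Ptch1*, *Smo*, *Gli1*, *Gli2* and *Sufu* by the brightest probe of each, by day in Cl19 (blue) and 3c3 (red) and in primary SMC (grey squares). Points are arrays, open where not well above background, and lines join means with the SD of 3 arrays. *Gli2* leaves the background between d2 and d4 in Cl19, *Smo* in 3c3 lies below Cl19 with replicates apart on d4 and d6, and *Sufu* is highest in primary SMC.

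Over the brightest probes of the 7 tested genes, 4 fell in Cl19 from d0 to d6 (*Ihh*, *Ptch1*, *Gli1* and *Sufu*), 1 rose (*Gli2*) and 2 did not pass (*Dhh* and *Smo*). Of all tested probes 30.3% were called lower and 22% higher. The brightest probes of *Gli1* and *Gli2* passed the filter only through groups where they were high, so their calls were favoured in advance. In 3c3, 3 fell (*Ihh*, *Smo* and *Sufu*) and 4 did not pass, against 28.6% of all probes called lower and 19.7% called higher. The median d6 change of the 7 was -0.74 in Cl19 and -0.66 in 3c3, beside medians of -0.20 and -0.21 over all tested probes. The F-test over the 3 days passed for 5 of the 7 in Cl19 (54.3% of all probes) and for 4 in 3c3 (50%). Without Cl19 d2 replicate 1 it passed for 4 of the 7 in Cl19, as *Gli1* no longer did (limma adjusted p = 0.060). On the authors' log2 values, which are not normalized between arrays, 55.7% of the d6 calls in Cl19 and 56.4% of those in 3c3 were higher, against 42.1% and 40.7% here.

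**Figure D4:**
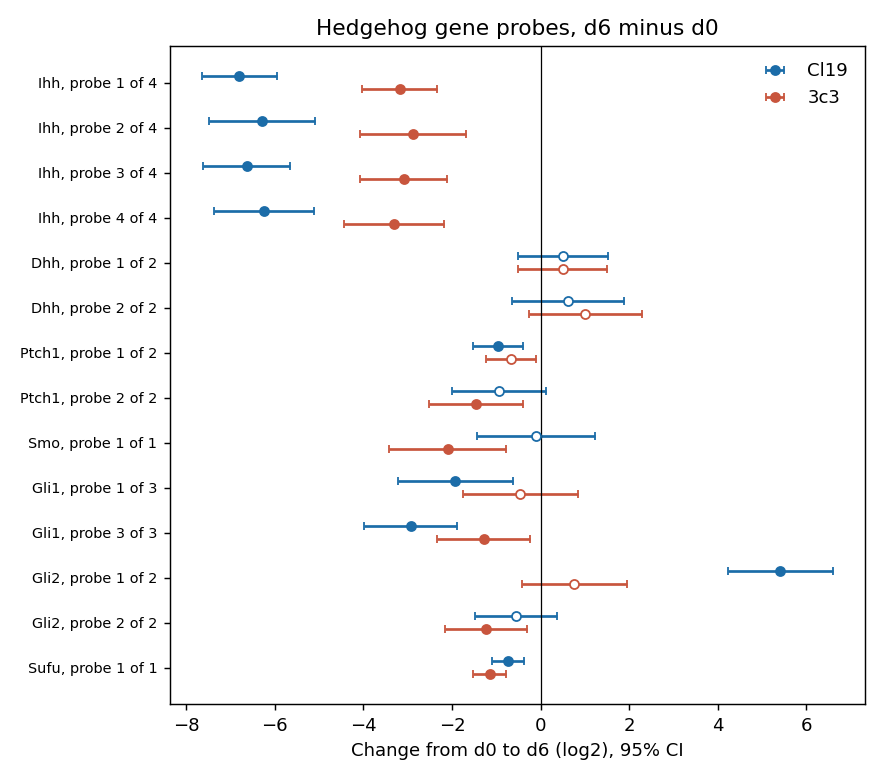
Change from d0 to d6 (log2, horizontal axis, 95% confidence interval) of the 14 tested probes in Cl19 (blue) and 3c3 (red), filled where the limma adjusted p was below 0.05. The 4 *Ihh* probes lie together far to the left, the 2 *Gli2* probes lie apart in Cl19 at 5.42 (a fitted value, as the probe was not detected on d0) and -0.55, and the other 8 probes lie between -2.93 and 1.01.

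Against Cl19 d6, the brightest probes of *Ptch1*, *Gli2* and *Sufu* were higher in primary SMC and that of *Ihh* was lower, where 32.8% of all probes were called higher and 38.6% lower. Against 3c3 d6, those of *Smo*, *Gli2* and *Sufu* were higher and that of *Ihh* lower (33.4% and 38.1% of all probes). The brighter *Dhh* probe was also called higher in both comparisons, against its second probe. The *Ptch1* difference from Cl19 d6 was 0.70 (limma adjusted p = 0.045) and was lost without either SMC array (limma adjusted p = 0.24 and 0.059) or Cl19 d6 replicate 2 (limma adjusted p = 0.21). *Gli1* read 3.70 and 0.49 on the 2 SMC arrays, neither well above background, and no direction can be given. On the authors' log2 values the median of all tested probes in primary SMC was 2.17 units below Cl19 d6 (the file's difference is -2.17), and 8.30% of the calls were higher, so levels in SMC are relative to the array's other probes.

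In bulk RNA fewer cells that make a transcript and less of it per cell cannot be told apart. The levels of markers of other cell types over the same days are given beside the *Ihh* fall. Of the 8 visceral endoderm markers, all on the array, 6 were well above background on all d0 arrays of each line and 8 on all d6 arrays. Their summed signal ranged in Cl19 from 46272 to 52794 on d0, from 65364 to 90486 on d2, from 46352 to 78548 on d4 and from 24422 to 51415 on d6. In 3c3 the ranges were 44588 to 66333, 89181 to 97922, 45771 to 50151 and 36825 to 47301. The sum hides members that went opposite ways: in Cl19 the mean of *Amn* went from 14.79 on d0 to 11.39 on d6 and that of *Cubn* from 13.46 to 8.53, while *Afp* went from 2.96 to 10.06, *Ttr* from 3.43 to 10.26, *Apoa1* from 3.39 to 9.46 and *Apob* from 1.06, not detected, to 13.28. In 3c3 the means of the same 2 were lower on d6 and those of the same 4 higher. In primary SMC it was 151 to 161 and *Afp*, *Ttr*, *Apob*, *Apoa1* and *Cubn* were not detected. In Cl19 the 6 of 8 undifferentiated rMAPC markers on the array summed to 37175 to 40321 on d0 and 15695 to 23882 on d6. In 3c3 the sums were 40070 to 44163 and 28693 to 30492. On Cl19 d6 the sum was mostly *Foxa2*, which is also among the visceral endoderm markers. The mean of *Foxa2* went from 13.27 to 13.93 in Cl19 and from 13.39 to 13.88 in 3c3. Those of *Gata4*, *Gata6*, *Sox17*, *Sox7* and *Pou5f1* were lower on d6 in both lines. *Pou5f1* (*Oct4*) was at 10.28 on d0 and at 1.13, well above background on 1 of 3 arrays, on d6 in Cl19, and at 11.53 and 7.42 in 3c3. The 8 chondrocyte markers summed to 20229 to 23708 on d0 and to 3657 to 6164 on d6 in Cl19, to 19419 to 20981 and 13346 to 21827 in 3c3, with *Acan* undetected in all 8 rMAPC groups. That sum was mostly *Pth1r*, which in Cl19 had a mean of 14.41 on d0 and of 11.20 on d6, whereas *Comp* went from 8.39 to 10.47 and *Col2a1* from 1.00, not detected, to 9.28. Their part in the *Ihh* fall was not tested.

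The 5 genes whose 9 group means were most like those of *Ihh* were *Fgfr4*, a fibroblast growth factor receptor (r = 0.990), *Clspn*, a DNA replication checkpoint gene (r = 0.989), *Ccsap* (r = 0.985), *Dtl*, a replication licensing gene (r = 0.985), and *Rbbp5*, of histone methyltransferase complexes (r = 0.985). These correlations are a description over 9 points that share their arrays. *Fgfr4* had the steepest course of the 5, from 9.62 on d0 to 4.22 on d6 in Cl19, from 8.55 to 6.75 in 3c3 and 1.84 in primary SMC.

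Further genes of the pathway were taken from 4 lists written from general knowledge, with 1 probe per gene. Their counts stand beside the shares of all tested probes called on d6, 22% higher and 30.3% lower in Cl19, 19.7% and 28.6% in 3c3, and 17.4% between the lines, and medians over all tested probes of -0.20 and -0.21. Of 14 genes for the release and reception of ligand, 9 were tested. In Cl19 3 rose, 1 fell and 5 did not pass, and in 3c3 2 rose, 2 fell and 5 did not, with median changes of 0.18 and 0.81. *Scube3*, whose family releases hedgehog from the producing cell, was not detected on d0 and rose at least 5.18-fold in Cl19 (limma adjusted p = 7.0e-08). In 3c3 it went from 1.95, not detected, to 3.75 with 2 of 3 arrays detected (limma adjusted p = 0.00057), and no fold is given. *Scube3* passed the filter through groups other than d0, so rises from d0 were favoured in advance. *Scube1* of the same family was at least 4.22-fold lower on d6 in Cl19 (limma adjusted p = 0.00017) and at least 4.90-fold lower in 3c3 (limma adjusted p = 8.6e-05).

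Of 17 genes for transduction and Gli processing, 12 were tested. In Cl19 7 rose, 3 fell and 2 did not pass, and in 3c3 2 rose, 5 fell and 5 did not, and the median changes were 0.65 and -0.22. *Evc*, a ciliary partner of Smo, was at least 14.9-fold lower on d6 in Cl19 (limma adjusted p = 1.2e-09), where no d6 array detected it, and at least 2.35-fold lower in 3c3 (limma adjusted p = 0.0039). The lines differed in its change (limma adjusted p = 4.0e-05, and 0.00068 with signals raised to the lowest detected level). Of the protein kinase A catalytic subunits, which promote processing of Gli proteins into repressors, *Prkacb* rose (1.45 and 0.52, limma adjusted p = 3.3e-06 and 0.030) and *Prkaca* fell (-0.69 and -0.88, limma adjusted p = 0.0036 and 0.00058). *Gsk3b*, a kinase of the same step, rose by 0.52 and 0.40 (limma adjusted p = 0.0023 and 0.016), and *Adrbk1* (*Grk2*), which phosphorylates Smo, changed by -0.47 and -0.71 (limma adjusted p = 0.022 and 0.0013). A test of the lines against each other passed for 7 of the 12 (58.3%, against 17.4% of all probes).

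Of 12 genes for transport in the primary cilium, the organelle in which Smo acts, 9 were tested. In Cl19 5 rose and 4 did not pass, and in 3c3 3 fell and 6 did not, with median changes of 0.41 and -0.39. No gene passed in the same direction in both lines, and the difference between the lines passed for 4 of the 9 (44.4%, against 17.4% of all probes). With signals raised to the lowest detected level the 3c3 count was 2 lower and the median -0.20.

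Of 23 genes known to respond to hedgehog in some tissues, 18 were tested. In Cl19 8 rose, 5 fell and 5 did not pass, and in 3c3 6 rose, 2 fell and 10 did not, with median changes of 0.39 and 0.19, or 0.25 and 0.33 with signals raised to the lowest detected level. The BMP ligands *Bmp4* (5.60 in Cl19 and 4.38 in 3c3, limma adjusted p = 4.9e-10 and 2.2e-08) and *Bmp2* (6.10 and 3.66, limma adjusted p = 6.8e-10 and 8.2e-07) rose in both lines. The Notch ligand *Jag2*, detected on 1 of 3 d0 arrays in each line, rose by d6 at least 11.8-fold in Cl19 and 6.74-fold in 3c3 (limma adjusted p = 1.4e-06 and 6.1e-05). The cyclin *Ccnd2*, detected on 1 and 0 of the d0 arrays, rose at least 2.57-fold and 6.10-fold (limma adjusted p = 0.0012 and 2.7e-06). Neither *Jag2* nor *Ccnd2* was detected throughout d0 in either line. Both passed the filter through other groups only, so their rises were favoured in advance. *Mycn* (-1.71 and -1.63, limma adjusted p = 2.3e-05 and 5.4e-05) and *Foxm1* (-1.56 and -1.33, limma adjusted p = 3.0e-06 and 2.9e-05), both of proliferating cells, fell. These genes also answer other signals, TGF-β and BMP among them, and the list's members moved both ways.

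**Figure D5:**
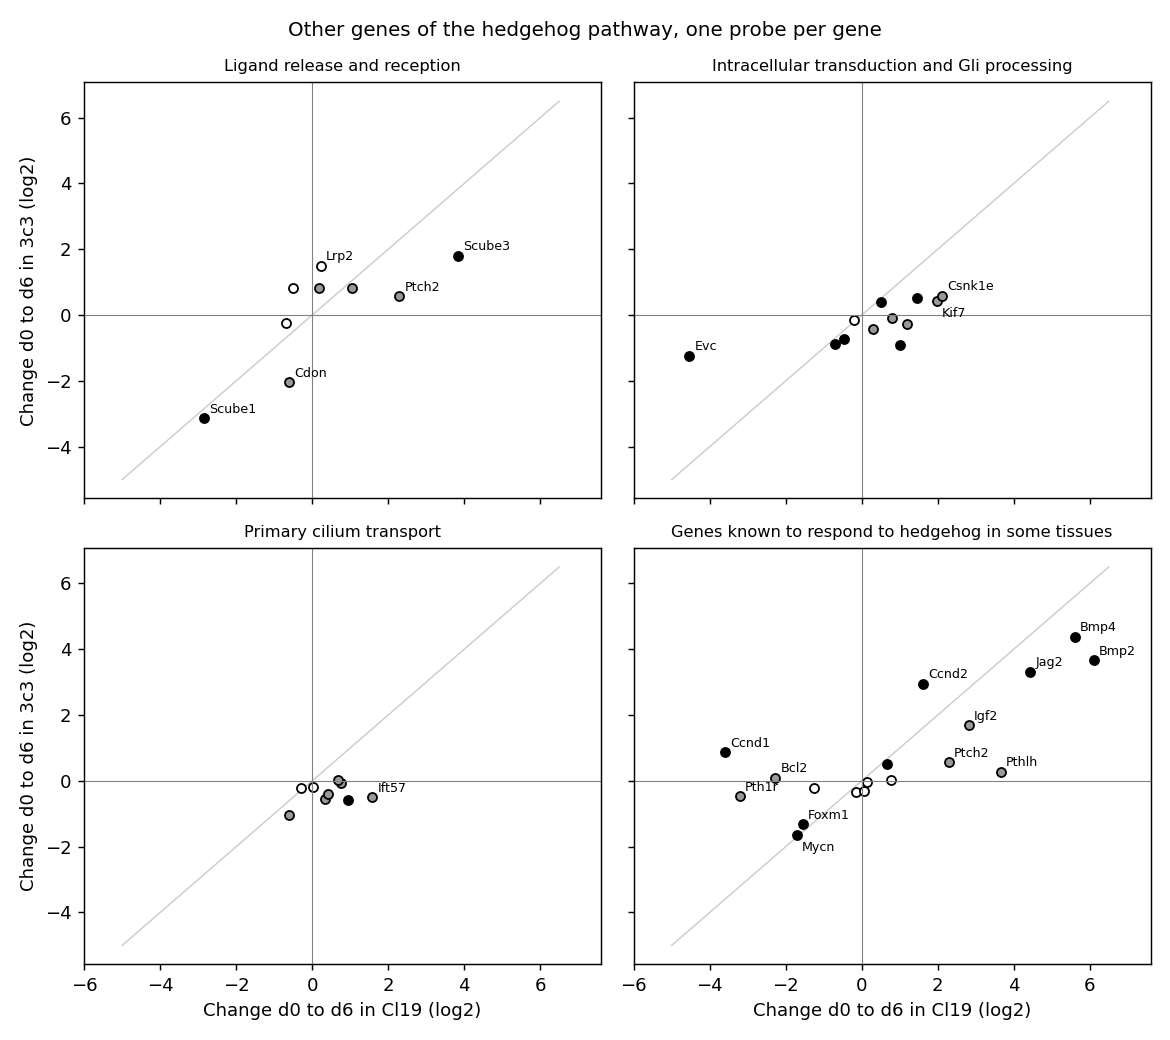
Change from d0 to d6 (log2) in Cl19 (horizontal axis) against 3c3 (vertical axis) of the tested genes of the 4 lists, 1 probe per gene. Black points passed the test in both lines, grey points in 1 and white points in neither, and the pale diagonal marks equal change. Primary cilium genes lie between -1.03 and 1.59 on both axes, 8 of 9 to the right of the diagonal, and *Bmp2*, *Bmp4* and *Jag2* lie far up on both axes. Positions are fitted values, which for genes not detected on d0 or d6, such as *Scube3*, *Evc* and *Jag2*, have no fixed size.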

How the data were processed

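The authors hybridised Cy3-labelled RNA to 1-colour 60-mer rat arrays (Agilent Whole Rat Genome) and deposited, per the file headers, spot intensity values from Feature Extraction 10.1.1.1 with annotation on rn4, and a table of log2 values, which equalled the log2 of that signal and carried no normalization between arrays. Here the log2 processed signal was quantile normalized over 26 arrays, features called outliers by the scanner software were left out and spots of a probe were averaged. Probes were kept (24442) where all arrays of 1 group or more, of 9, had them well above background. One limma fit (3.58.1, R 4.3.3) over all groups gave changes, and p-values were Benjamini-Hochberg adjusted over all tested probes, with a threshold of 0.05. The number of arrays limits the precision.

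Where a probe was not well above background on arrays of the dimmer group, a bound ("at least") set its mean against, per array, the higher of its own signal and the lowest signal among probes well above background. The members and gene lists were chosen with earlier results of these data known. The report names every hedgehog gene, list genes that passed with the same sign in both lines (at most 4 per list and direction) and the 5 genes whose group means were most like *Ihh*. *Tagln* and *Pou5f1* check the labels of d0, d6 and primary SMC by group means. The marker lists were smooth muscle, undifferentiated rMAPC, visceral endoderm, chondrocyte, endothelium, blood, epithelium and neural.

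Replicate numbers mark slides in the scanner files. Deviations from group means correlated above 0.1 in 18 of 18 same-slide pairs in 3c3 and 16 of 18 in Cl19, and in all 6 pairs of d0 with d6, so that the slide as a block was an alternative. Other alternatives were 75th percentile scaling, normexp background correction, the authors' table, no filter, a floor for dim signals, a random slide block, a fit per line, the mean over probes, the methods' t-test, array weights, and leaving out each array or the 3c3 replicate 3 slide. Differences between the lines on d2 and d4, leaving out arrays there, and the floor for list genes were added after seeing the data. The fit was tested on simulated data. Promoters came from RefSeq (GRCr8).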

Additional observations from a re-analysis of the deposited data

Results flagged for a closer look

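The fall of *Ihh* from d0 to d6 differed between the lines by -3.62 on the log2 scale (larger in Cl19, where all 3 slides fell by more than any of the 3 slides of 3c3), by a test of the difference itself (limma adjusted p = 0.00016). The change of *Gli2* by its brighter probe differed by 4.66 (larger in Cl19, limma adjusted p = 0.00036). Since the probe was not well above background on d0 in either line, this value has no fixed size, and it was 2.94 with signals raised to the lowest detected level of each array and 0.90 with normexp, with the call kept in both. The *Gli2* probe passed the filter only through Cl19 d4, Cl19 d6 and primary SMC, so its call was favoured in advance. Each line is 1 clone, scanned on its own day, and these cannot be told apart.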

How the results depend on the processing

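The 3 *Ihh* results on d6 (both lines and their difference), both *Sufu* d6 changes, and the *Gli2* change in Cl19 and its line difference kept direction and call under every alternative run, though sizes moved. With normexp *Ihh* in Cl19 was -5.47 and *Gli2* in Cl19 0.97, and with the floor *Gli2* in Cl19 was 3.68. Over all single-gene results and alternatives, 544 values kept direction and call, 24 lost the call, 17 gained it and 31 changed sign. With the replicate block (slide), the *Ptch1* change in 3c3 passed (-0.66, limma adjusted p = 0.0019), and no other d6 call changed. Primary SMC was on a slide of its own, so this block cannot adjust the SMC comparisons. *Smo* in SMC minus Cl19 d6, which turned to 0.18 in that fit, is therefore no result. With the authors' table *Smo* in Cl19 was 0.26, SMC minus Cl19 d6 was -0.53 for *Dhh*, -1.49 for *Ptch1*, -0.69 for *Gli1*, -0.60 for *Gli2* and -0.094 for *Sufu*, and SMC minus 3c3 d6 was -0.34 for *Dhh* and -1.69 for *Ptch1*. That table lacks normalization between arrays. *Gli1* in SMC minus 3c3 d6 was 0.74 with 75th percentile scaling and 0.68 with the floor, which also gave *Gli1* in 3c3 as 0.11 and the *Dhh* line difference as -0.45. The mean over probes gave *Gli2* in 3c3 as -0.24, line differences of -0.19 (*Dhh*) and 0.10 (*Ptch1*), SMC minus Cl19 d6 of -0.44 (*Dhh*), -0.020 (*Ptch1*) and -0.031 (*Gli1*), and SMC minus 3c3 d6 of -0.16 (*Dhh*). Without the 3c3 replicate 3 slide the *Dhh* line difference was -0.55. The number of genes called in SMC against Cl19 d6 (5) became 2 with normexp, 3 with the authors' table and 3 with the mean over probes. Over all probes that comparison called 17441 in the main fit, 16581 with normexp and 19751 with the authors' table. The number called over time became 3 in Cl19 (from 5) and 2 in 3c3 (from 4) with the authors' table, and 2 in 3c3 without the filter and without the replicate 3 slide. All-probe shares for the other counts are not given, so those counts are no result about the members. The methods' t-test gave 3 genes in Cl19 on d6 after Benjamini-Hochberg adjustment, against 5; over all probes it called 13363 unadjusted and 11278 adjusted in Cl19, and 11176 and 8034 in 3c3. The cause of these shifts was not tested.

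With signals raised to the floor, added after seeing the data, list counts in 3c3 fell from 2 to 1 lower (ligand release and reception) and from 3 to 2 lower (cilium), and the lines differed for 1 gene of the first list in place of 2. Leaving out 1 array gave 3 to 5 genes called over time in Cl19, 2 to 4 in 3c3 and 2 to 5 in SMC against Cl19 d6. The shares of all probes in these fits are not given, so the ranges describe the member counts only. *Smo* in Cl19 ranged from -0.37 to 0.16, *Gli2* in 3c3 from -0.10 to 1.61, the *Dhh* line difference from -0.55 to 0.34, and *Gli1* from -1.05 to 2.16 (SMC minus Cl19 d6) and -2.03 to 1.18 (SMC minus 3c3 d6). Dim probes limit *Shh*, *Gli1*, *Gli3*, *Hhip* and the second *Gli2* probe.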

Other observations

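Of the other marker lists, the 7 epithelium markers were all well above background on every rMAPC array, and their summed signal rose in range from 134300 to 143776 on d0 to 302538 to 311478 on d6 in Cl19, and from 137945 to 147477 to 248184 to 261599 in 3c3, against 1459 to 1525 in primary SMC. The smooth muscle list (9 of 10 markers on the array) went from 1868 to 2256 on d0 to 61171 to 73143 on d6 in Cl19. In 3c3 it went from 1489 to 1725 to 29056 to 46113, with 98400 to 100841 in primary SMC. In Cl19 the d6 sum was mostly *Tagln* (mean 15.85), and the means of *Cnn1*, *Smtn*, *Des* and *Lmod1* also rose. There *Actg2* went from 4.46 to 4.76 and *Synpo2* from 3.35 to 3.01, against 12.0 and 8.18 in primary SMC. *Myocd* and *Mylk* were undetected on Cl19 d0 and each detected on 1 of 3 d6 arrays, against means of 7.04 and 6.19 in primary SMC. The 6 endothelium markers summed to 52.0 to 76.4 on d6 in Cl19 and 94.3 to 136.5 in 3c3, and the 6 blood markers to 125.9 to 195.0 and 144.4 to 176.3. The neural list (4 of 5 markers on the array) rested on *Tubb3*, with *Neurod1*, *Map2* and *Snap25* not well above background in any group, and summed to 1617 to 2440 on d6 in Cl19 and 152.2 to 897.9 in 3c3.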
